A study of Mus musculus with 4 samples.

Results

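SLAM family receptors are surface proteins of the immunoglobulin superfamily that sit on T cells, B cells, natural killer (NK) cells and myeloid cells. Most of them bind the same receptor on a neighbouring cell, so they act as adhesion and signalling molecules where lymphocytes touch. CD48 differs in that it is held in the membrane by a lipid anchor and binds CD2 and CD244. The cytoplasmic tails of several others carry tyrosine motifs that recruit the small adaptor SAP, the product of Sh2d1a, which brings in the kinase Fyn, whereas SLAMF7 is known to signal through the related adaptor EAT-2. In helper T cells this axis is known for its part in IL-4 production and in durable contacts with B cells.

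The set comprised 6 genes, Slamf1, Slamf6, Slamf7, Cd48, Cd84 and Ly9, chosen by symbol through every non-control array probe whose transcript accession maps to one of them. They were read by 11 probes, and all 6 were among the 20505 genes or unnamed transcripts tested. The cells came from the spleens of Irf4-/- and wild-type (WT) males on the C57BL/6 background, flow-sorted as naive CD4+ T cells (CD62L+, CD44-), and each genotype was measured on 2 one-colour arrays. Irf4 is a transcription factor that T cells induce through the antigen receptor. Both genotypes were activated with antibody 2C11 to CD3e at 1 µg per ml beside mitomycin C-treated syngeneic antigen-presenting cells, and RNA was taken on day 2 after a second sort for live CD4+ cells. The ages of the mice, the deleted part of Irf4, the genotype of the antigen-presenting cells and whether animals were pooled are not given in the sources used here. The labels disagree on culture time, since a treatment protocol names shorter cultures than 2 days. The design text states 2 independent experiments without tying arrays to them, so p-values measure only the spread between these samples.

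Levels are log2 signals relative to the 75th percentile of an array, so 0 is the signal of a probe at that percentile, and a level of 1 probe cannot be set against that of another. Differences are Irf4-/- minus WT on this log2 scale, from limma fitted over all 20505 genes with Benjamini-Hochberg adjustment and a threshold of 0.05. The targeted gene had levels of 4.23 and 4.04 in Irf4-/- cells, against 5.03 and 4.74 in WT cells, a difference of -0.75 ± 0.20 (SE, limma adjusted p = 0.231), and its other probe differed by -0.37. Irf4 passed with normexp (adjusted p = 0.0267) and with limma's trend and robust settings (0.0258). Both Irf4-/- arrays lay below both WT arrays, but where these probes lie relative to the deletion is not known here, so they do not check the genotype. Over all genes 151 passed, which is 0.736% of those tested. All arrays were on the same slide, where the row equals the replicate number in either genotype. In bulk RNA, fewer cells of a type and less RNA per cell cannot be told apart.

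None of the 6 receptors passed this test, and they did not all differ in the same direction. Slamf7, Slamf6 and Cd48 had lower values on both Irf4-/- arrays than on either WT array, Ly9 and Slamf1 had nearly equal means in the genotypes, and Cd84 had higher values on both Irf4-/- arrays. The groups thus did not overlap for 4 of 6 receptors, against 39.2% of all tested genes, of which 21.3% had Irf4-/- below WT and 17.9% Irf4-/- above WT. At an unadjusted p under 0.05 there were 3 of 6 receptors, all lower in Irf4-/- cells, against 11.4% of all tested genes in either direction and 5.01% lower, and the median difference was -0.26 for the receptors, against -0.02 for all genes. All 6 were well above background on all 4 arrays and none was saturated, so no value is a bound.

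**Figure D1:**
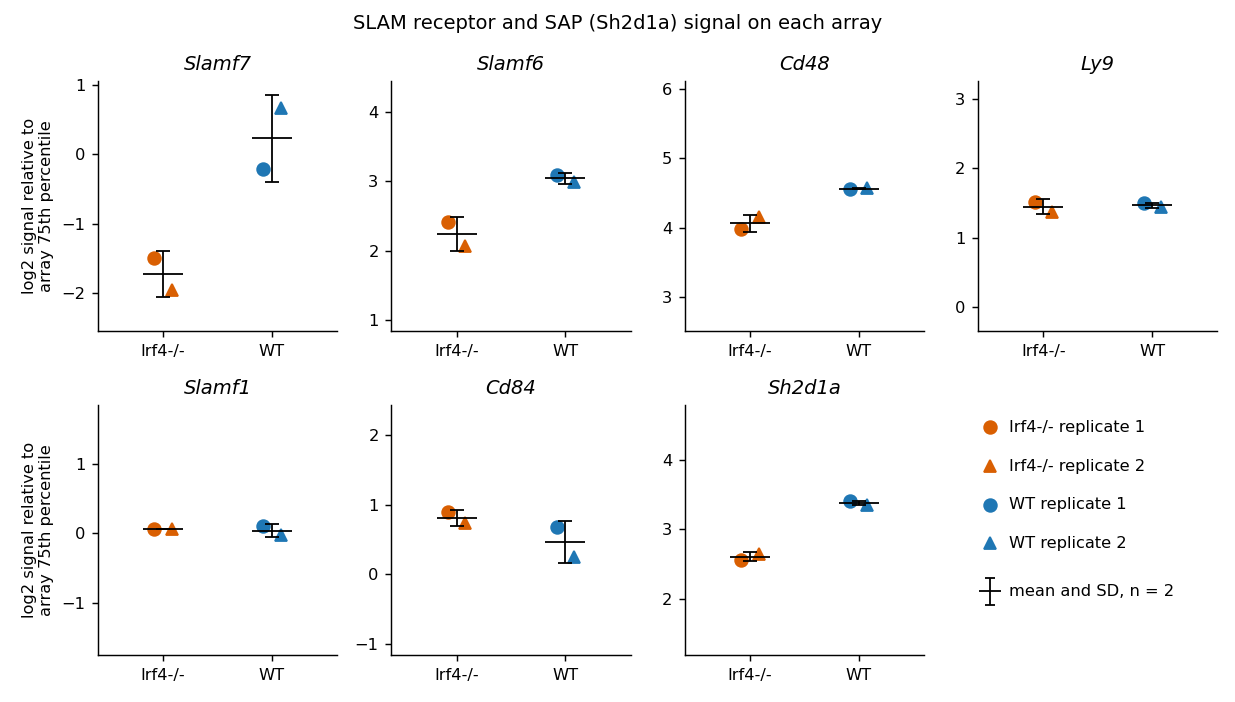
Levels (log2 signal relative to the array's 75th percentile) of the 6 SLAM receptors and of Sh2d1a on each array, Irf4-/- left and WT right, from the brightest probe of each gene. Circles are replicate 1, triangles replicate 2, and bars the mean and SD of 2 arrays; every panel spans the same log2 range around its own mean, and the groups lie apart by -1.95 for Slamf7, -0.80 for Slamf6 and -0.77 for Sh2d1a.

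Slamf7 (read on accession NM_144539), also called CRACC, is found on NK cells, activated lymphocytes and plasma cells. Its levels were -1.49 and -1.96 in Irf4-/- cells, against -0.21 and 0.67 in WT cells. The groups did not overlap, but the WT arrays lay further apart than those of the other 5 receptors. Slamf7 averaged -1.72 ± 0.33 in Irf4-/- cells and 0.23 ± 0.62 in WT cells (SD, n = 2 each), so the signal in Irf4-/- cells was 0.259 times that of WT cells (95% interval 0.136 to 0.490). The difference was -1.95 ± 0.36 (SE, limma adjusted p = 0.116). A value as low or lower was found for 0.483% of tested genes, and one at least as large in either direction for 1.58%. Slamf7 differed by -1.27 between the arrays of slide row 1 and by -2.63 between those of row 2.

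Slamf6 (NM_030710), also called Ly108 in the mouse, is a T-cell and B-cell receptor that binds itself and is known for regulating helper T-cell contact with B cells. Its brighter probe gave 2.42 and 2.07 in Irf4-/- cells, against 3.10 and 2.98 in WT cells. Both Irf4-/- arrays were the low ones, and the gap between the groups exceeded the spread within either. The signal was 0.576 times that of WT cells, a difference of -0.80 ± 0.20 (SE, limma adjusted p = 0.215), with -0.68 in slide row 1 and -0.91 in row 2. Another Slamf6 probe gave -0.05 and -0.54 in Irf4-/- cells, against 0.55 and 0.29 in WT cells, a difference of -0.72 ± 0.24 (SE, limma adjusted p = 0.323 in a fit over all probes, which called 1.01% of them). The probes thus gave the same direction and nearly the same size.

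Cd48 (NM_007649) encodes the lipid-anchored ligand of CD2 and CD244 and had levels of 3.98 and 4.15 in Irf4-/- cells, against 4.55 and 4.56 in WT cells. The difference was -0.50 ± 0.17 (SE, limma adjusted p = 0.373). A value as low or lower was found for 7.42% of tested genes, and one at least as large in either direction for 16.5%. The second Cd48 probe gave 3.17 and 3.35 in Irf4-/- cells, against 3.66 and 3.52 in WT cells. Both probes separated the groups in the same direction, with -0.33 for the second (SE 0.17, limma probe-level adjusted p = 0.573).

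Cd84 (NM_013489), a self-binding receptor known for T-cell contact with B cells, was the single receptor with Irf4-/- above WT. Its brightest probe gave 0.89 and 0.73 in Irf4-/- cells, against 0.68 and 0.25 in WT cells, a difference of 0.35 ± 0.22 (SE, limma adjusted p = 0.709). It was 0.13 without WT replicate 2 and 0.56 without WT replicate 1. The groups nearly touched, since Irf4-/- replicate 2 and WT replicate 1 were close. A second probe of the same transcript differed by 0.27 with overlapping groups. The remaining Cd84 probe, designed on transcript NM_001252472, gave -3.13 and -2.49 in Irf4-/- cells, against -3.03 and -2.53 in WT cells. It showed no separation (difference -0.029 ± 0.30 SE), and its arrays grouped by slide row, with row 2 above row 1 in both genotypes.

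Slamf1 (NM_013730), the founding member, also called CD150, is a self-binding receptor that uses SAP. Its brighter probe gave 0.06 and 0.07 in Irf4-/- cells, against 0.10 and -0.03 in WT cells. The 4 arrays spanned a narrow range and the groups overlapped, with a difference of 0.028 ± 0.17 (SE, limma adjusted p = 0.992) and a 95% interval of -0.41 to 0.46. The other Slamf1 probe differed by -0.050. Ly9 (NM_008534), also called CD229, gave 1.52 and 1.37 in Irf4-/- cells, against 1.49 and 1.44 in WT cells. Its difference was -0.021 ± 0.17 (SE, limma adjusted p = 0.995), with a 95% interval of -0.46 to 0.42. For both genes the sign turned under some alternatives. For these genes the intervals leave out differences as large as that of Slamf7 and of Slamf6, but not one of the size of Cd84.

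**Figure D2:**
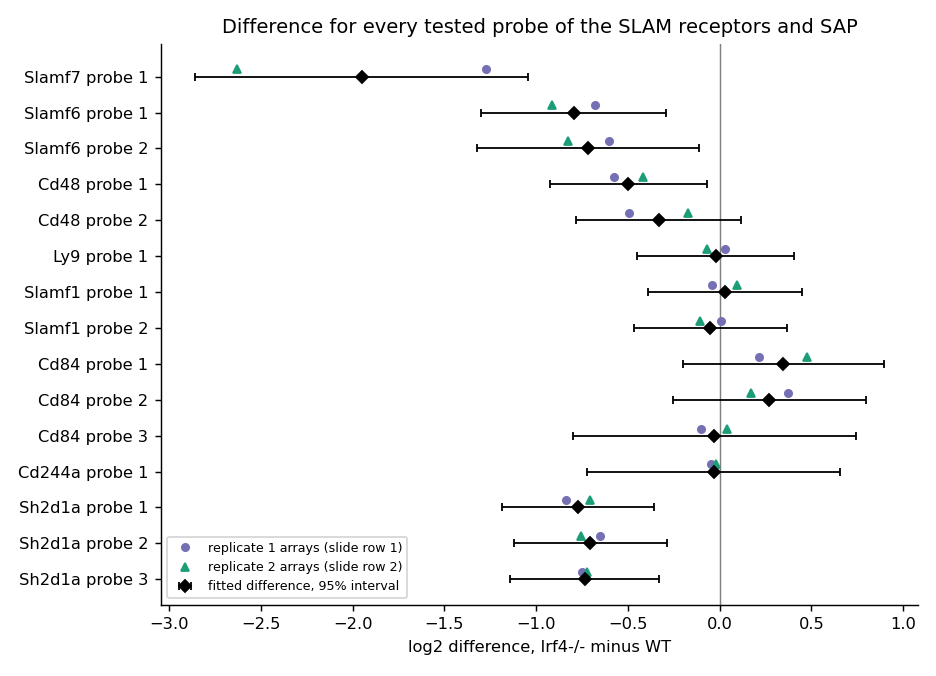
Log2 difference, Irf4-/- minus WT, for each tested probe of the 6 SLAM receptors, Cd244a and Sh2d1a, with probes of a gene numbered from the brightest. Diamonds and bars are the difference and its 95% interval in the fit over all probes, circles the difference within slide row 1 and triangles that within row 2; the single Slamf7 probe has the widest gap between rows (-1.27 and -2.63), while the 3 Sh2d1a probes lie between -0.77 and -0.70.

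The other 3 receptors of the family were read for comparison. Cd244a, whose product is the CD48-binding receptor CD244, gave -1.61 and -1.12 in Irf4-/- cells, against -1.57 and -1.10 in WT cells. Its arrays grouped by slide row and not by genotype, with a difference of -0.03 ± 0.27 (SE, limma adjusted p = 0.994). A second Cd244a probe and the probes of Slamf8 and Slamf9 were not well above background on any array and were not tested.

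Promoter sequence is shown for Slamf7, which had the lowest difference, for Slamf6, the next lowest, and for Cd84, the highest, so that the receptors at the ends of the range can be read side by side. Irf4 binds DNA weakly alone and is known to bind composite elements with AP-1 factors of the BATF and JUN families or with ETS factors. Each sequence is the 250 bases before the annotated start, from RefSeq on GRCm38.p6, written 5′ to 3′ on the strand of the gene, with capitals marking matches to the AP-1 motif. Slamf7 is chr1:171649000-171649249 on the minus strand, Slamf6 is chr1:171917212-171917461 on the plus strand and Cd84 is chr1:171839447-171839696 on the plus strand.
Slamf7: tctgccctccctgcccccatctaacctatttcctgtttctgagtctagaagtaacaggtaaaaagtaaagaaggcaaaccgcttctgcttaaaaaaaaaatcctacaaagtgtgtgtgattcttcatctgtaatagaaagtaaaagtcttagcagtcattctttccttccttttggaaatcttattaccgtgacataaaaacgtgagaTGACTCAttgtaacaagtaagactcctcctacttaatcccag
Slamf6: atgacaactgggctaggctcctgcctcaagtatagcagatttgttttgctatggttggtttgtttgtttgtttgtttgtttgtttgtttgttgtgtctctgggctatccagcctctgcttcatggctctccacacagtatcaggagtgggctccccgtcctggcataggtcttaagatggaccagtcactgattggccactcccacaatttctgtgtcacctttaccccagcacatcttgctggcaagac
Cd84: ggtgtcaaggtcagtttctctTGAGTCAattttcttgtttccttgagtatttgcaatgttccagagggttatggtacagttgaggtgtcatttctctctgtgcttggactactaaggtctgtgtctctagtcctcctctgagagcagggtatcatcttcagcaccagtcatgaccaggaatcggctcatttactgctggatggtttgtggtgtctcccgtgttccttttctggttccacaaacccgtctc
A match to TGANTCA, on either strand, lay 42 to 36 bases before the start of Slamf7 and 229 to 223 bases before that of Cd84. Windows reaching 50 bases past the start were searched for 32851 starts of all genes, and 7.81% held this motif. On either strand, no window of Slamf7, Slamf6, Cd84, Cd48 or Slamf1 held the interferon response element ISRE (3.44% of all windows), the ETS composite EICE (2.72%), or the AP-1 composites AICE1 (0.119%) and AICE2 (0.125%), whose letters include the AP-1 motif. The AP-1 match thus occurred both in the receptor with the lowest difference and in the one with the highest. It also occurred in Cd244a, whose difference was -0.03, and in Slamf8, which was not tested and also held an ISRE match. Binding was not measured. Of the 6 receptors 5 had a promoter in the table; Ly9 did not.

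The receptor genes lie next to each other on chromosome 1, which allows them to be read in their order (GRCm38.p6 annotation, order only). From Cd244a to Slamf6 the annotation lists 7 SLAM receptors and 8 other entries, and none of those 8 was tested. Within that run Ly9, Slamf7, Cd48, Slamf1, Cd84 and Slamf6 follow one another with differences of -0.021, -1.95, -0.50, 0.028, 0.35 and -0.80. Some receptors next to each other in the order had unlike values, such as Ly9 beside Slamf7 and Cd84 beside Slamf6. Others were alike, such as Cd244a (-0.03) beside Ly9, and Slamf7 and Cd48 were both lower in Irf4-/- cells. From 3 entries before Cd244a to 3 after Slamf8, another 12 genes were tested and none passed. Their differences ran from -0.27 to 0.34. Of the 12, 2 genes lay wholly below WT and 3 wholly above, against 21.3% and 17.9% of all tested genes.

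**Figure D3:**
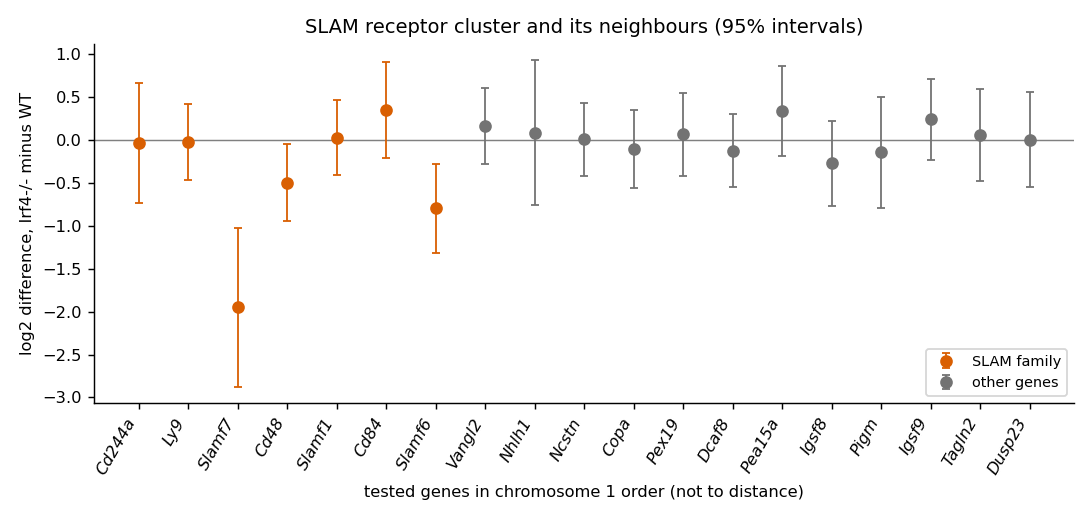
Log2 difference, Irf4-/- minus WT, with 95% interval for each tested gene of the SLAM cluster on chromosome 1, in gene order and not to distance. SLAM receptors (orange) run from -1.95 for Slamf7 to 0.35 for Cd84; the 12 other tested genes (grey), all on the Slamf6 side, lie between -0.27 and 0.34.

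Among the adaptors, only SAP was detected. Sh2d1a gave 2.56 and 2.65 in Irf4-/- cells, against 3.40 and 3.35 in WT cells. Both Irf4-/- arrays lay below both WT arrays, and the spread within each genotype was small beside the gap. The signal in Irf4-/- cells was 0.586 times that of WT cells, a difference of -0.77 ± 0.17 (SE, limma adjusted p = 0.162), with -0.84 in slide row 1 and -0.71 in row 2. Both other Sh2d1a probes lay below WT as well, by -0.70 and -0.74 (limma probe-level adjusted p = 0.168 and 0.149). The related adaptor genes Sh2d1b1, encoding EAT-2, and Sh2d1b2 were not well above background on any array.

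Of 19 further signalling partners, all were tested and none passed, with 8 positive and 11 negative differences and a median of -0.03, against -0.02 over all genes. Fyn, the kinase that SAP recruits, gave 0.65 and 0.84 in Irf4-/- cells, against 0.49 and 0.58 in WT cells (difference 0.21, limma adjusted p = 0.828). Lck, the kinase bound to CD4, differed by 0.12 (limma adjusted p = 0.938). The 3 widest differences in this list were those of Sh3bp2, an adaptor that binds SYK-family kinases (-0.50), the phosphatase gene Ptpn11 (-0.25) and the autophagy gene Uvrag (0.24).

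Of the 6 genes listed around CD48 and CD2, 1 had a negative and 5 a positive difference. Cd2, which encodes the T-cell receptor for CD48 in the mouse, gave 6.88 and 6.89 in Irf4-/- cells, against 7.31 and 7.42 in WT cells. Its difference of -0.48 ± 0.17 (SE, limma adjusted p = 0.373) was close to that of its ligand gene Cd48. In contrast, Cd5 and Cd6, which encode paired scavenger-type receptors that restrain antigen receptor signalling, differed by 0.86 and 0.75 (limma adjusted p = 0.130 and 0.173). Cd226, an activating receptor gene, gave -1.21 and -1.26 in Irf4-/- cells, against -2.17 and -2.58 in WT cells, a difference of 1.14 (limma adjusted p = 0.116). None of the 6 genes of this list passed, and their median was 0.42. Cd5 and Cd6 passed with normexp and with limma's trend and robust settings, which called 3.71% and 3.89% of all genes; Cd226 passed with trend and robust (adjusted p = 0.0473) but was 0.48 with normexp (adjusted p = 0.148).

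The cytokine genes tied to SAP signalling in helper T cells are Il4 and Il21. Il4 gave 0.84 and 0.22 in Irf4-/- cells, against 2.54 and 2.69 in WT cells, a difference of -2.08 ± 0.26 (SE, limma adjusted p = 0.0561). The groups stood well apart and the gene lay just outside the threshold. It passed under 8 of 15 alternatives (limma adjusted p from 7.91e-08 to 0.524), among them those without Irf4-/- replicate 1 (adjusted p = 0.0146) or replicate 2 (0.0495). The brightest Il21 probe was well above background on neither Irf4-/- array and on both WT arrays, where its levels of -2.14 and -0.10 lay far apart. By the lowest signal counted as above background it was at least 8.92-fold lower in Irf4-/- cells, a bound that was not tested. Without WT replicate 2 the bound was 4.4-fold, and without WT replicate 1 it was 18.1-fold. The fitted difference was -4.15 (limma adjusted p = 0.121), but it used Irf4-/- values below background. The probe entered that fit only through its WT arrays. The Il21 difference was -1.48 with normexp and -2.29 with the mean of all probes, below the 8.92-fold bound in size. Il21 passed with normexp (limma adjusted p = 0.0189) and with median scaling (9.02e-30). Median scaling gave it an SE of 0.358, the same as for every gene named here, against 0.785 in the reported fit. Its own spread thus did not count there. The other Il21 probe was above background on 1 array of each genotype with overlapping groups, so Il21 has no settled value.

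**Figure D4:**
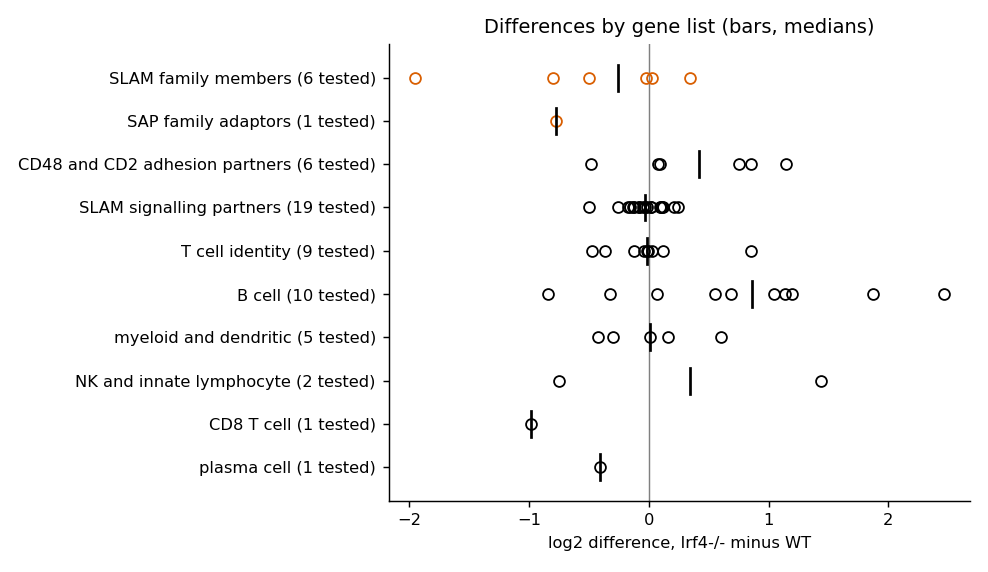
Log2 differences, Irf4-/- minus WT, of each tested gene (circles) in the receptor, adaptor, partner and marker lists, with the median of each list as a bar. The 6 SLAM receptors spread from -1.95 to 0.35, the 19 signalling partners from -0.50 to 0.24, and the 10 tested B-cell markers from -0.84 to 2.46.

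SLAM receptors are also carried by the other cells these cultures could hold, so markers were read beside them. All 9 T-cell identity genes were well above background on all 4 arrays, with a median difference of -0.02, and none passed. The widest differences were 0.86 for Cd5, -0.48 for the costimulatory receptor gene Cd28 and -0.36 for Cd247 (limma adjusted p = 0.130, 0.407 and 0.530). For 4 of the 9 the groups did not overlap, against 39.2% of all tested genes. Cd4 differed by 0.11 (limma adjusted p = 0.944), and its sign turned without WT replicate 2. The summed signal of 12 B-cell markers, in units of the 75th percentile, was 15.5 and 9.56 on Irf4-/- arrays, against 5.15 and 2.83 on WT arrays. Without its brightest gene, the coactivator gene Pou2af1, the sum was 7.35 and 3.15 on Irf4-/- arrays, against 3.36 and 1.87 on WT arrays, so the groups overlapped. Of the 10 tested B-cell genes none passed and 8 had positive differences, and Ebf1 was not above background on any array. The 2 with negative differences, Cd79a and Cr2, were above background on both WT arrays but on 1 Irf4-/- array only. For 3 of the 10, Pou2af1, Cd72 and Cd22, both Irf4-/- arrays lay above both WT arrays, against 17.9% of all tested genes, and for 0 they lay below. Cd72 differed by 1.87 and Cd22 by 0.56 (limma adjusted p = 0.0981 and 0.324). Pou2af1 differed by 2.46 (limma adjusted p = 0.0684) and passed in 4 alternatives, among them the 3 that called the most genes. The part of B-cell RNA in the receptor values was not tested.

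For Slamf7 the markers of NK, cytotoxic and plasma cells bear most directly. Of 8 NK and innate lymphocyte markers, Ncr1, Klre1, Klri2 and Klra4 were not above background on any array, Klrb1c was above it on 1 array of each genotype and Klra8 on 1 Irf4-/- array. The summed NK signal was 8.77 and 5.35 on Irf4-/- arrays, against 5.09 and 4.28 on WT arrays, with differences of 1.44 for Eomes, a cytotoxic-lineage factor, and -0.75 for the receptor gene Klrk1 (limma adjusted p = 0.280 and 0.302). Without Eomes the sum was 1.96 and 1.41 on Irf4-/- arrays, against 2.46 and 2.89 on WT arrays. Klrk1 was then the only marker above background on every array and made up most of this sum. The direction of the sum is thus that of 1 gene. The part of NK-cell RNA in the Slamf7 value was not tested. The plasma-cell genes Jchain and Tnfrsf17 were not above background on any array, and the summed signal of the 4 plasma-cell markers was 0.43 and 0.40 on Irf4-/- arrays, against 0.53 and 0.55 on WT arrays. Most of this sum came from Derl3, the only plasma-cell marker tested (difference -0.41, limma adjusted p = 0.486). Cd8b1 ran the same way as Slamf7, at 2.23 and 2.14 in Irf4-/- cells, against 3.12 and 3.21 in WT cells (difference -0.98, limma adjusted p = 0.0979). Cd8b1 passed with median scaling, normexp, and trend and robust (limma adjusted p = 0.0466, 0.00206 and 0.00240). These settings called the most genes, 5.08%, 3.71% and 3.89% of all. Cd8a was above background on 1 array of each genotype. The part of CD8-lineage RNA in the Slamf7 value was not tested. Myeloid markers summed to 11.4 and 10.6 on Irf4-/- arrays, against 11.9 and 12.8 on WT arrays. Most of this sum came from Itgam and Csf1r, which were above background on every array. Of 5 tested myeloid genes none passed, with 3 positive and 2 negative differences. Among them were -0.30 for Itgam, 0.0071 for Csf1r and 0.60 for Cd68. The other negative gene, Cd300a (-0.42), was above background on neither Irf4-/- array and entered the test through its WT arrays. Of the 13 markers 6, including Lyz2, Adgre1 and Itgax, were not above background on any array. Of 7 erythroid and platelet markers 2 were tested, with differences of 0.95 for Hba-a1 and 1.56 for Hbb-bt, and neither passed. Hbb-bt was above background on 1 WT array only and entered the test through its Irf4-/- arrays.

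Among 12022 other named genes above background on every array, those whose 4 values, centred on their mean, lay nearest to Slamf7 were Slc2a3, a glucose transporter gene, Ppp1r1b, a phosphatase inhibitor gene, and Egln3, a prolyl hydroxylase gene, at Euclidean distances of 0.10, 0.18 and 0.22. Their differences were -2.04, -2.01 and -1.81, and none passed (limma adjusted p = 0.117, 0.0789 and 0.109), though each passed in some alternatives. The value for Ppp1r1b was -0.81 with normexp and -0.73 with the mean of all probes. Nearest to Cd84 were Qdpr, Cmss1 and Faap100 at distances of 0.022, 0.035 and 0.040, with differences of 0.34, 0.33 and 0.31. With 4 arrays such likeness is a description only.

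Which receptors were called differed between settings. With limma's trend and robust settings Slamf7 (-1.95, adjusted p = 0.00805), Slamf6 (-0.80, adjusted p = 0.0170) and Sh2d1a (-0.77, adjusted p = 0.0103) passed, in a fit that called 3.89% of all genes and 1.52% lower. With normexp background correction the same 3 genes passed at -1.40, -0.80 and -0.78 (limma adjusted p = 0.00325, 0.0159 and 0.0121), in a fit that called 3.71% of all genes and 1.46% lower. With median scaling Slamf7 passed at -2.06 (limma adjusted p = 6.32e-07), while Slamf6 did not, in a fit that called 5.08% of all genes and 2.18% lower and gave every gene named here the same SE of 0.358. With the replicate number as a block, which equals slide row, no gene passed, with limma adjusted p = 0.211 for Slamf7 and 0.177 for Slamf6; in this balanced design the block cannot alter the differences themselves.

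**Figure D5:**
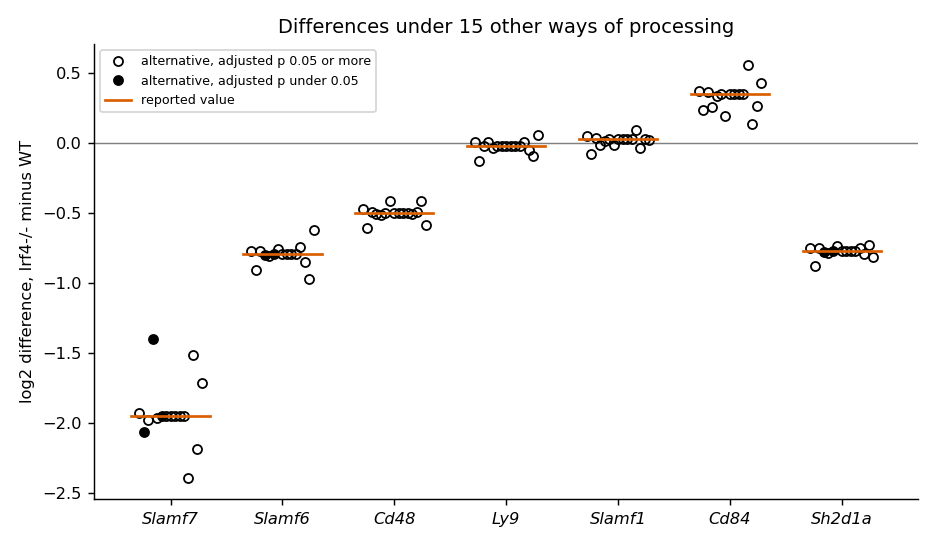
Log2 difference, Irf4-/- minus WT, of each receptor and of Sh2d1a under 15 alternatives (circles, filled where the adjusted p was under 0.05), with the reported value as an orange line. Slamf7 ran from -2.39 to -1.40, Slamf6 from -0.97 to -0.62 and Cd48 from -0.61 to -0.41, all below 0; Ly9 and Slamf1 lay on both sides of 0.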

How the data were processed

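RNA of CD4+ T cells was measured on 4 one-colour (Cy3) Agilent arrays, 2 per genotype. Spots were quantified by the authors in Agilent Feature Extraction, version 11.0.1.1 per the file headers and 9.1 per the submitters' processing notes. Per the file headers, the processed intensity had local trends and background subtracted, with no scaling between arrays. The deposited log2 table matched log2 of that signal less each array's 75th percentile, shifted by at most 0.03 and centred per probe over the 4 arrays, so it served only as an alternative. Its column medians were -0.11 and 0.12 for Irf4-/- and -0.17 and 0.10 for WT. The arrays' flags (values of 0 or 1) were also read from the deposited files.

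Controls and outliers were dropped and repeated spots averaged. By accession, 32919 probes were tied to 22878 RefSeq symbols (GRCm38.p6); the design was built on mm9, so coordinates are given only for RefSeq promoters. A gene was represented by its brightest probe and tested where both arrays of a genotype flagged that probe as well above background. Limma 3.58.1 in R 4.3.3 used 2 residual and 2.95 prior degrees of freedom; other probes came from a fit over 26331 probes. The fit was tested on simulated data. The normexp alternative used median spot signals, since the files hold no mean signal. The number of arrays limits the precision. Named were Irf4, all members with every probe, the listed receptors, adaptors, Cd2, Fyn, Lck, Il4 and Il21, and otherwise the widest 3 differences of a list; Cd4 and the single marker genes of other cell types were chosen after their values were seen. Members and lists were chosen with earlier results of these data known. The effect of the alternatives (scaling, background, filter, probe choice, error model, replicate block and leaving out each array) is given in the closing section.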

Additional observations from a re-analysis of the deposited data

How the results depend on the processing

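Of the 15 alternatives, 5 (error model, filters, probe-level fit and block) keep these differences by construction. In the other 10 the differences of Slamf7, Slamf6, Cd48, Sh2d1a and Cd2 were negative and that of Cd84 was positive. The number of receptors called was 0 in 12 of the 15, 1 with median scaling, 2 with normexp and 2 with trend and robust. Values of calls gained were -2.06, -1.40 and -1.95 for Slamf7 in those settings, and -0.80 for Slamf6 with normexp and with trend and robust. Genes called over all features numbered 151 as reported, 1042 with median scaling, 797 with trend and robust, 760 with normexp, 267 of 26331 probes, 260 with the authors' deposited table, 5 with quantile normalization, and 0 with the percentile over detected probes (2348 at an unadjusted p under 0.05), without a filter (2099) and with the replicate block (3195). Median scaling moved the median of all genes to -0.13. It rests on a signal near the limit of detection, since 45.4% to 50.7% of probes passed the scanner's flag. Leaving out 1 array gave between 0 and 487 calls: 487 without Irf4-/- replicate 1, 208 without Irf4-/- replicate 2, and 0 without WT replicate 1 (1864 unadjusted) or WT replicate 2 (1678 unadjusted). With 1 array in a genotype, limma assumes that it varies like the other genotype. No receptor was called when an array was left out, and Slamf7 then ran from -2.39 to -1.51 (limma adjusted p = 0.115 and 0.277 without WT replicates 1 and 2).

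Near 0 the sign was not stable. Slamf1 was -0.081 with median scaling, -0.018 with normexp and -0.011 with the mean of all probes, and ran from -0.037 to 0.093 when 1 array was left out. Ly9 was 0.0039 with the percentile over detected probes and 0.010 with normexp, and ran from -0.096 to 0.054. Cd244a was 0.039 with the mean of all probes and ran from -0.28 to 0.21, and Cd4 ran from -0.044 to 0.27. The cause was not tested. Same-numbered arrays deviated together at r = 0.348 across genes, which with 2 pairs and no label tying numbers to experiments does not establish pairing; the block, which cannot alter the differences, gave -1.95 for Slamf7, -0.80 for Slamf6, -0.50 for Cd48, 0.35 for Cd84, 0.028 for Slamf1 and -0.021 for Ly9. The marker sums without their brightest gene and the Il21 bounds without 1 WT array were chosen after seeing the data. Slide column cannot be told apart from genotype, since both WT arrays lay in column 1. Signal over background limits detection, with 45.4% to 50.7% of probes passing the scanner's flag, and the absence of signal for Slamf8, Slamf9, Sh2d1b1 and Sh2d1b2 means only that it was not detectable here.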
